A study of Pleurotus ostreatus with 32 samples.

Results

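The cap of stage 3 primordia was compared with whole stage 1 primordia in Pleurotus ostreatus, the oyster mushroom, which grows on dead wood. The comparison used 6 of the 32 RNA sequencing libraries of the series, 3 stage 3 cap libraries and 3 stage 1 libraries, chosen by their labels. All libraries came from strain N001, a dikaryon (a mycelium whose cells carry a pair of unlike nuclei), for which the labels name no treatment or mutation, and fruiting took place on bagged spawn at 18 to 19 °C under 8 h light and 16 h dark. Each replicate is a pool of tissue from 3 to 8 bodies, per the labels' protocols. The other 26 libraries, from mycelium, stage 3 stipe, young cap and stipe, mature cap, stipe, lamellae (gills) and cap skin, and a tissue labelled dedifferentiated cap, were used to share the estimate of the spread and to follow the genes that changed.

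Mushrooms arise from primordia, small knots of hyphae that form on the mycelium. As a primordium grows, its tissue becomes divided into a stipe, which lifts the fruiting body, and a cap, which spreads and later bears the gills where spores are made. Stage 1 primordia were sampled whole, whereas stage 3 primordia were cut into cap and stipe, so within this comparison the step in stage and the choice of tissue cannot be told apart. In bulk tissue, a larger share of cells of a kind and more RNA of a gene in each cell also cannot be told apart.

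The files number the genes and pair the numbers with no symbols, products or sequences. The deposited FPKM table carries the label PleosPC15, whereas the reference gene list used here is of another strain, PC9, and none of the numbers matched it, so genes are given by number, no roles are stated, and the tissue labels could not be checked against marker genes. Summed counts were 22.02, 23.2 and 25.9 M in the stage 3 cap libraries and 18.7, 22.9 and 21.2 M in the stage 1 libraries. Across genes, Spearman correlations were 0.970 to 0.982 between cap libraries, 0.951 to 0.971 between stage 1 libraries and 0.907 to 0.968 between a cap and a stage 1 library. The stage 1 libraries were mostly less alike than the cap libraries, and the between-group correlations overlapped those of stage 1.

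A gene was called when edgeR's quasi-likelihood test gave a Benjamini-Hochberg adjusted p under 0.05 over all 10814 genes tested and the change was at least 2-fold. By this rule 517 genes differed (4.78% of the genes tested). Of these, 176 genes were higher in stage 3 cap than in stage 1 primordia (1.63%) and 341 were lower (3.15%). Another 961 genes changed by at least 2-fold without reaching the adjusted p, and 46 reached it with less than a 2-fold change. The largest adjusted p among called genes was 0.0491, and the smallest among the genes of at least 2-fold that were not called was 0.05005. The smallest called change was 1.001 log2 units and the largest change left out by the fold rule was 0.9974.

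The median change was 2.10 log2 units among the raised genes and -1.69 among the lowered genes, beside -0.02 over all genes tested. Of the raised genes, 81 changed by less than 4-fold, 56 by 4- to 8-fold and 39 by 8-fold or more. Of the lowered genes, 222 changed by less than 4-fold, 67 by 4- to 8-fold and 52 by 8-fold or more. Lowered genes were therefore the more numerous, while a larger part of the raised genes changed by 8-fold or more. In 174 of 176 raised genes every cap library lay above every stage 1 library, and in 324 of 341 lowered genes every cap library lay below. Over all genes tested, such separation without regard to a test was seen in 25.1% of genes, 11% with cap higher and 14.2% with cap lower. The called genes were picked from these same libraries, so their separation is a description and not added support.

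**Figure D1:**
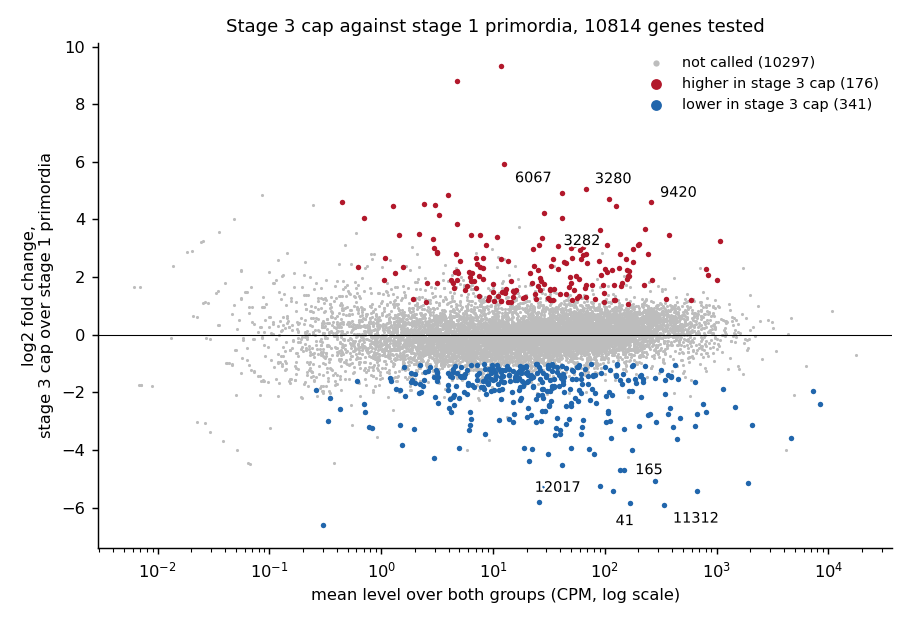
Each dot is a gene, with its mean level over both groups in CPM on a log axis and its log2 fold change of stage 3 cap over stage 1 primordia on the other axis. Red dots are the 176 genes higher in cap, blue dots the 341 lower, grey dots the genes not called, and numbers mark the genes named by rule. Both kinds of called gene are found at low and at high levels, and the blue dots reach further to the right.

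Called genes were spread over the range of expression. When the genes tested were ranked by mean level over all 32 libraries, in CPM (counts relative to TMM-scaled library totals), and cut into 4 bins of equal size, the share of raised genes was 1.55%, 1.92%, 1.78% and 1.26% from the lowest to the highest bin. The share of lowered genes was 1.70%, 3.33%, 3.22% and 4.36%. The raised genes were thus fewest in the most abundant bin, where the lowered genes were most frequent. Gene length, as implied by the ratio of CPM to the deposited FPKM (the same per length of transcript), had a median of 1065 bases in 147 raised genes and 998 bases in 313 lowered genes, beside 971 bases in the 8927 genes tested that had enough counts. Counts were fractional in at least 1 library for 35 raised and 81 lowered genes, which may share reads with similar or overlapping genes. Whether such genes were more frequent among called genes than over all genes tested was not tested.

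The lists took up different shares of the libraries. The raised genes together held 1.88%, 2.52% and 2.41% of the counts in the cap libraries, against 0.451%, 0.602% and 0.468% in the stage 1 libraries. The lowered genes held 1.78%, 1.39% and 1.97% of the counts in the cap libraries, against 10.9%, 6.93% and 8.33% in the stage 1 libraries. These shares describe the genes that the test had picked and carry no test of their own. The lowered genes held the larger share in the group where they were high. Of the 176 raised genes, 53 had a mean above 100 CPM in cap, 4 of them above 1000 CPM. Of the 341 lowered genes, 86 had a mean above 100 CPM in stage 1 primordia, 12 of them above 1000 CPM.

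Stage 1 primordia were the more variable group in both lists and over all genes. For lowered genes the highest cap library was on median 1.56 times the lowest, and the highest stage 1 library 2.07 times the lowest. The ratios were 1.77 in cap and 2.01 in stage 1 for raised genes, and 1.5 in cap and 1.69 in stage 1 over all genes tested. For the raised genes, stage 3 cap replicate 1 was the lowest of its group in 98 of 176 (3654 of all 10814 genes), and stage 1 replicate 2 was the highest of its group in 99 (2915 of all genes). For the lowered genes, stage 1 replicate 1 was the highest of its group in 185 of 341 (4089 of all genes), and stage 1 replicate 2 was the lowest in 199 (2753 of all genes).

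The counts of called genes depended on single libraries. Without stage 3 cap replicate 2 there were 89 raised and 157 lowered genes, and without stage 1 replicate 1 there were 103 and 194. Leaving out stage 1 replicate 3 gave 96 raised and 286 lowered genes, and leaving out stage 3 cap replicate 3 gave 128 and 227. Without stage 3 stipe replicate 3, which enters only through the shared spread and scaling and had the lowest scaling factor of the 32 libraries (0.690), there were 247 and 418. With only the 2 compared groups in the fit, 173 genes were raised and 187 lowered. Of these, 126 and 168 were among the 176 raised and 341 lowered genes of the main fit. Across the 6 fits that each leave out a cap or stage 1 library, 72 raised and 131 lowered genes were called every time. Lowered genes outnumbered raised genes in each fit named here, by the least (187 against 173) with only the 2 compared groups.

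**Figure D2:**
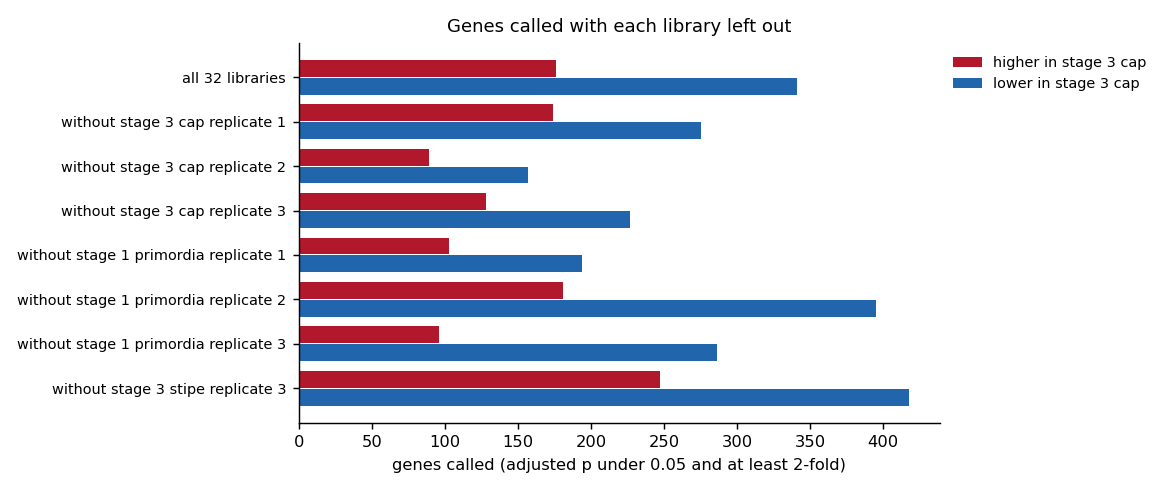
Bars give the number of genes called higher (red) and lower (blue) in stage 3 cap than in stage 1 primordia with all 32 libraries and with a single library left out. The counts run from 89 to 247 for higher and from 157 to 418 for lower genes, and the blue bar is the longer of each pair.

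The rule for naming genes took the largest changes among called genes whose libraries did not overlap and whose mean count reached 10 in each group. All p-values below are adjusted over the genes tested by the Benjamini-Hochberg method. Gene 3280 had 92.7, 193 and 109 CPM in the cap libraries, against 3.16, 6.88 and 1.61 CPM in the stage 1 libraries. It rose by 5.07 ± 0.83 on the log2 scale (SE; adjusted p by edgeR = 0.000282), and the lowest cap library lay more than 10 times above the highest stage 1 library. In stage 3 stipe it had 2.47, 1.87 and 10.6 CPM, so the stipe overlapped stage 1 primordia and lay below every cap library.

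Gene 3280 was also seen in later tissue. It averaged 54.7 ± 29.2 CPM in young cap and 5.08 ± 3.23 CPM in young stipe (SD, n = 3 each), a difference of 3.42 ± 0.77 log2 units (adjusted p by edgeR = 0.00769). Without young stipe replicate 1 the difference was 3.01 and was not called (adjusted p by edgeR = 0.0723). Mature cap averaged 6.96 ± 1.27 CPM and mature skin 23.7 ± 3.77 CPM. The difference of skin from mature cap, 1.77 ± 0.72 log2 units, was not called (adjusted p by edgeR = 0.227). The highest libraries of gene 3280 were those of the dedifferentiated cap, at 574.8 and 2860 CPM, both above every stage 3 cap library. Its counts were fractional in 1 of the 32 libraries.

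Gene 6067 had 81.6, 53.2 and 105 CPM in the cap libraries, against 1.28, 2.87 and 3.73 CPM in the stage 1 libraries. Its log2 fold change was 4.92 ± 1.43 (adjusted p by edgeR = 0.0415). Leaving out any 1 of the 6 cap and stage 1 libraries ended the call, with log2 fold changes of 4.60 to 5.25 and adjusted p-values of 0.0664 to 0.179 by edgeR. A fit of these 6 libraries by themselves gave an adjusted p of 0.00365 by edgeR. Unlike gene 3280 it was not set apart by the stipe, which had 13.3, 19.6 and 73.4 CPM in stage 3, and the test of stage 3 cap against stage 3 stipe gave 1.18 ± 1.22 log2 units (adjusted p by edgeR = 0.636). That value was 2.28 without stage 3 stipe replicate 3 and 0.78 without stage 3 stipe replicate 1, and neither was called. In mature lamellae it reached 13102, 24961 and 17207 CPM, against 216, 8.11 and 3.08 CPM in mature cap. That difference was 7.93 ± 1.63 log2 units (adjusted p by edgeR = 0.000484), and all 3 lamellae libraries lay above those of every other tissue. It was 11.7 without mature cap replicate 1, the highest of the mature cap libraries.

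Among the genes that fell, gene 11312 had 15.3, 8.55 and 9.64 CPM in the cap libraries, against 1059.7, 141 and 793 CPM in the stage 1 libraries. It fell by 5.89 ± 0.68 on the log2 scale (adjusted p by edgeR = 6.92e-06). Stage 3 stipe held 169, 49.1 and 103 CPM, above every cap library and overlapping the lowest of stage 1, and the difference of stage 3 cap from stage 3 stipe was -3.26 ± 0.60 log2 units (adjusted p by edgeR = 0.000986). In young and mature tissues its group means stayed between 7.27 CPM (lamellae) and 17.4 CPM (young stipe), while mycelium averaged 272 ± 261 CPM. High levels were thus found in mycelium, stage 1 primordia and stage 3 stipe.

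Gene 41 had 6.93, 4.32 and 5.85 CPM in the cap libraries, against 754.5, 74.0 and 163 CPM in the stage 1 libraries. It fell by 5.86 ± 0.87 on the log2 scale (adjusted p by edgeR = 0.000102), although the stage 1 libraries differed among themselves by about 10 times. The 3 stage 3 stipe libraries held 215, 108 and 18.8 CPM and did not overlap the cap. In young tissue its mean was 9.49 ± 6.59 CPM in cap and 40.4 ± 18.1 CPM in stipe (SD, n = 3 each), a difference that did not pass the test (adjusted p by edgeR = 0.149).

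The largest rise of all called genes was that of gene 11153, which the rule left out because of its low stage 1 counts and which was singled out after its values were seen. Its counts were 537, 465 and 748 in the cap libraries, against 0, 2 and 0 in the stage 1 libraries (adjusted p by edgeR = 3.93e-05), and its counts were fractional in 2 of the 32 libraries. The ratio of the summed counts, scaled for library size, was 785, with an exact 95% interval of 217 to 6490 that covers counting error only. Group means were 32.9 ± 1.97 CPM in young cap, 44.9 ± 16.8 CPM in skin and 29.2 ± 20.3 CPM in mycelium, but at most 0.28 CPM in the 3 stipe groups. Mature cap averaged 1.35 ± 1.25 CPM and lamellae 0.431 ± 0.601 CPM. The gene was therefore detected at above 6 CPM in every library of stage 3 cap, young cap, skin and mycelium and at under 3 CPM in every other library. In all, 20 raised genes had under 1 CPM in every stage 1 library, and 20 lowered genes had under 1 CPM in every cap library. By group mean, 22 of 176 raised genes lay under 1 CPM in stage 1 primordia, beside 859 of all 10814 genes tested. In stage 3 cap, 26 of 341 lowered genes had a mean under 1 CPM, beside 901 of all genes tested.

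**Figure D3:**
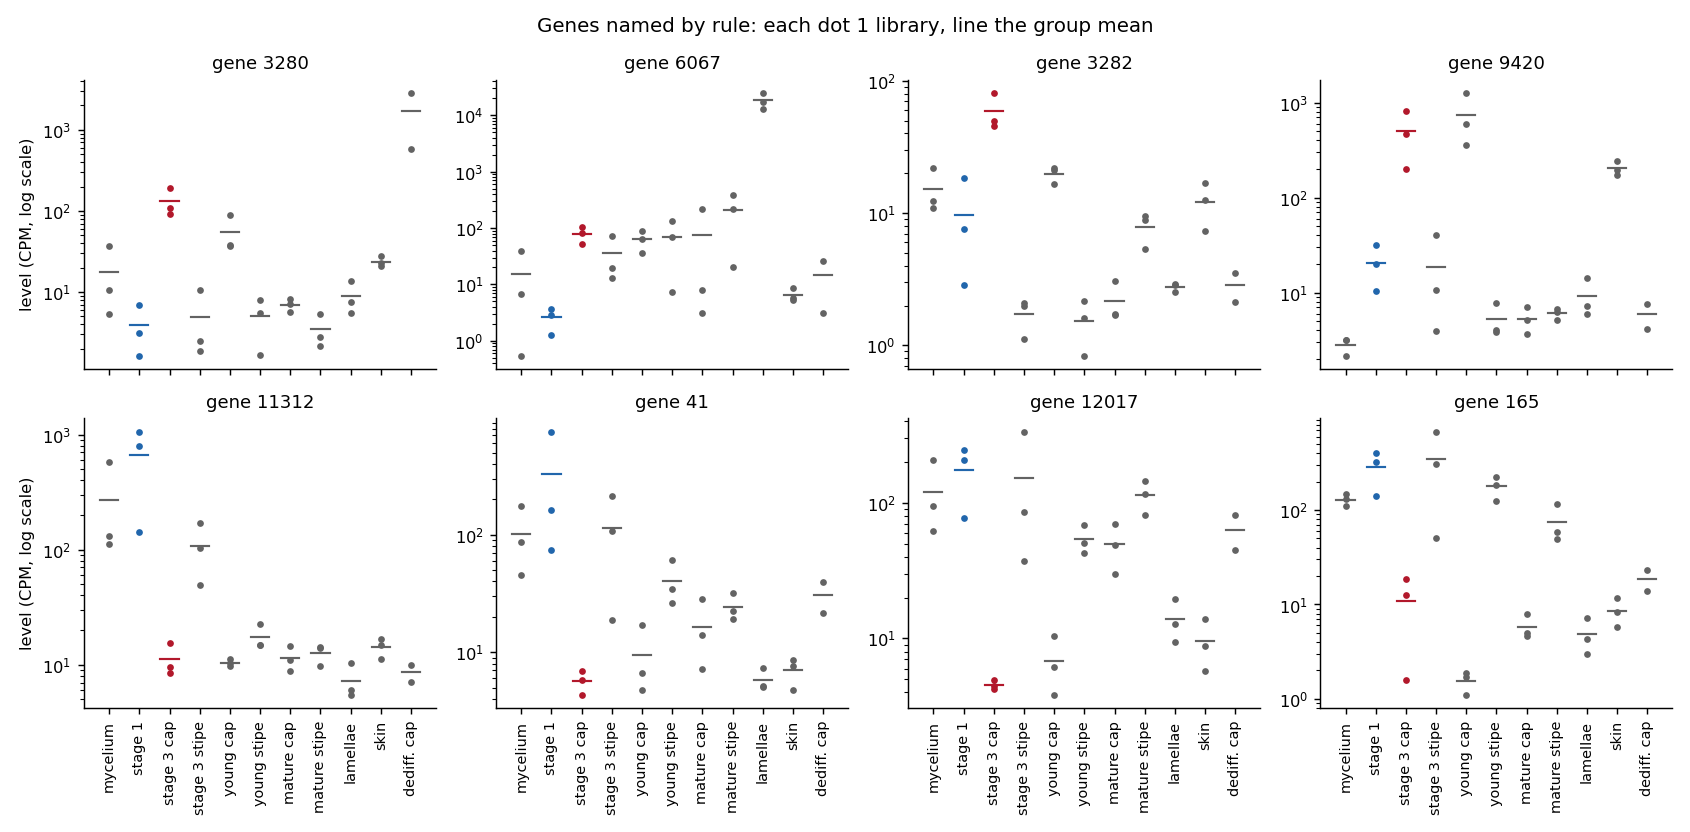
The 8 panels show the level of each gene named by rule in CPM on a log axis, with a dot for each library and a line at the group mean, in the order of mycelium, stage 1, stage 3, young and mature tissue. Stage 3 cap is red, stage 1 primordia blue and all other groups grey; gene 6067 peaks in lamellae at a mean of 18423 CPM, and gene 9420 is high in stage 3 cap, young cap and skin.

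Whether the changed genes also set cap apart from stipe was addressed within stage 3. This comparison uses the same cap libraries, so its values are given beside the main ones and not as a second line of evidence. Of the 10814 genes tested, 591 differed between stage 3 cap and stage 3 stipe (5.47%), 300 of them higher (2.77%) and 291 lower (2.69%) in cap. Without stage 3 cap replicates 1 or 2 the count was 385 or 314. With scaling by library size only, 439 were higher and 189 lower, at a median over all genes of 0.06 log2 units, and without stage 3 stipe replicate 3 the split was 441 and 292. The raised genes had a median of 2.16 log2 units in stage 3 cap over stage 3 stipe, and the lowered genes a median of -1.06, beside -0.10 over all genes tested.

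The stipe of the same stage gives the third side of this triangle. In stage 3 stipe over stage 1 primordia, which shares the stage 1 libraries, the raised genes had a median of 0.13 log2 units, beside 2.10 in the cap. The lowered genes had a median of -0.65 in the stipe, beside -1.69 in the cap, and the median of all genes tested was 0.03. The median level of the raised genes was 42.0 CPM in stage 3 cap, 8.81 CPM in stage 3 stipe and 9.28 CPM in stage 1 primordia. The cap and stage 1 libraries had picked these genes, so their difference is given as a description. The lowered genes had a median level of 18.8 CPM in stage 3 stipe, between 8.84 CPM in stage 3 cap and 35.2 CPM in stage 1 primordia. As these genes were picked as low in cap and high in stage 1 primordia, the place of the stipe is a description too.

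Under the same rule on counts and overlap, among the genes called in the main comparison, the gene with the largest excess of stage 3 cap over stage 3 stipe was gene 3282. It had 45.5, 81.0 and 50.1 CPM in cap, 1.11, 2.00 and 2.10 CPM in stipe, and 7.54, 18.4 and 2.88 CPM in stage 1 primordia. Cap was above stipe by 5.08 ± 0.56 log2 units (adjusted p by edgeR = 2.19e-06) and above stage 1 primordia by 2.61 ± 0.49 (adjusted p by edgeR = 0.0013). Stage 1 primordia lay between the tissues, with every library above those of the stipe and below those of the cap.

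By that rule gene 12017 had the largest deficit in stage 3 cap against stipe, with 4.50, 4.23 and 4.97 CPM in cap, 85.5, 37.0 and 334 CPM in stipe, and 205, 77.2 and 244 CPM in stage 1 primordia. The difference of cap from stipe was -5.06 ± 0.69 log2 units (adjusted p by edgeR = 3.93e-05), and it was -3.74 without stage 3 stipe replicate 3. Against stage 1 primordia the gene fell in cap by 5.26 ± 0.69 on the log2 scale (adjusted p by edgeR = 2.93e-05). Stipe and stage 1 libraries overlapped, and every cap library lay below both.

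Young fruiting bodies gave a comparison that shares no library with the one that picked the genes. As all 32 libraries were fitted together, both comparisons do rest on the same estimate of the spread. Young cap and young stipe differed in 359 genes (3.32%), 210 of them higher in cap (1.94%) and 149 lower (1.38%). Of the 176 raised genes, 103 (58.5%) were higher in young cap than in young stipe, and 169 had a log2 fold change above 0. Of the 341 lowered genes, 88 (25.8%) were lower in young cap, and 287 had a log2 fold change below 0. The medians were 1.91 log2 units for the raised genes and -0.74 for the lowered genes, beside 0.05 over all genes tested. Leaving out young cap replicate 1 left 236 genes called in all and 57 of the lowered genes. Leaving out young cap replicate 2 left 53 of the lowered genes, and leaving out young stipe replicate 1 left 212 and 54. Of the raised genes, 74 were called higher in young cap without young stipe replicate 1. That count was 80 without young stipe replicate 3 and 86 without young cap replicate 3.

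Under the same rule on counts and overlap, gene 9420 was the called gene with the largest excess in young cap over young stipe. Its young libraries held 604, 360.2 and 1269 CPM in cap, against 3.99, 7.78 and 3.86 CPM in stipe, a difference of 7.16 ± 0.78 log2 units (adjusted p by edgeR = 2.73e-06). In the stage 3 cap libraries it had 198, 828 and 468 CPM, against 19.8, 31.4 and 10.4 CPM in stage 1 primordia (log2 fold change 4.60 ± 0.69; adjusted p by edgeR = 0.000108). Per length, its mean in stage 3 cap was 337 FPKM and that of gene 3280 was 339 FPKM, so on that scale the levels of both genes were close. It fell to 5.26 ± 1.67 CPM in mature cap, against 744 ± 471 CPM in young cap (adjusted p by edgeR = 1.79e-07), and skin held 174, 196 and 241 CPM.

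By that rule gene 165 had the largest deficit in young cap against young stipe, with 1.098, 1.87 and 1.70 CPM in cap, against 185, 125 and 223 CPM in stipe (log2 fold change -6.83 ± 0.84; adjusted p by edgeR = 1.07e-05). In stage 3 cap it had 18.7, 1.57 and 12.7 CPM, against 325, 140.04 and 401 CPM in stage 1 primordia (log2 fold change -4.71 ± 0.75; adjusted p by edgeR = 0.000227). Stage 3 stipe averaged 344 ± 315 CPM and mature stipe 74.9 ± 36.7 CPM, so the cap fell below stipe and stage 1 primordia alike. The cap-stipe difference of each of these 8 genes was also compared between stage 3 and young bodies by an interaction test, and the lowest adjusted p by edgeR was 0.864. That test called 0 of the 10814 genes tested, so it does not show that the differences were the same at both stages.

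Maturation was followed with mature cap against young cap, which again shares no library with the main comparison. It does share the young cap libraries with young cap against young stipe. Mature bodies also gave separate lamellae and skin samples, whereas young bodies gave only cap and stipe samples. The step in stage and a difference in the tissue cut therefore cannot be told apart in this comparison. Here 3881 genes differed (35.9%), 2056 higher in mature cap (19%) and 1825 lower (16.9%). With scaling by library size only, 1487 were higher and 2524 lower, at a median over all genes of -0.24 log2 units. Of the 176 raised genes, 115 (65.3%) were lower in mature cap than in young cap, and their median change was -1.98 log2 units. Of the 341 lowered genes, 234 (68.6%) were higher in mature cap, with a median change of 1.96, beside 0.03 over all genes tested. By their medians, both lists moved in the direction opposite to that of the primordium step. With library size only, 129 raised genes were lower and 217 lowered genes higher.

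Between stage 3 and young cap both lists changed little by their medians. The raised genes had a median of -0.18 log2 units in young cap over stage 3 cap and the lowered genes 0.37, beside 0.02 over all genes tested. This comparison shares the stage 3 cap libraries. Median levels of the raised genes were 42.0 CPM in stage 3 cap, 34.9 in young cap and 7.85 in mature cap, and those of the lowered genes were 8.84, 10.5 and 41.4 CPM.

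**Figure D4:**
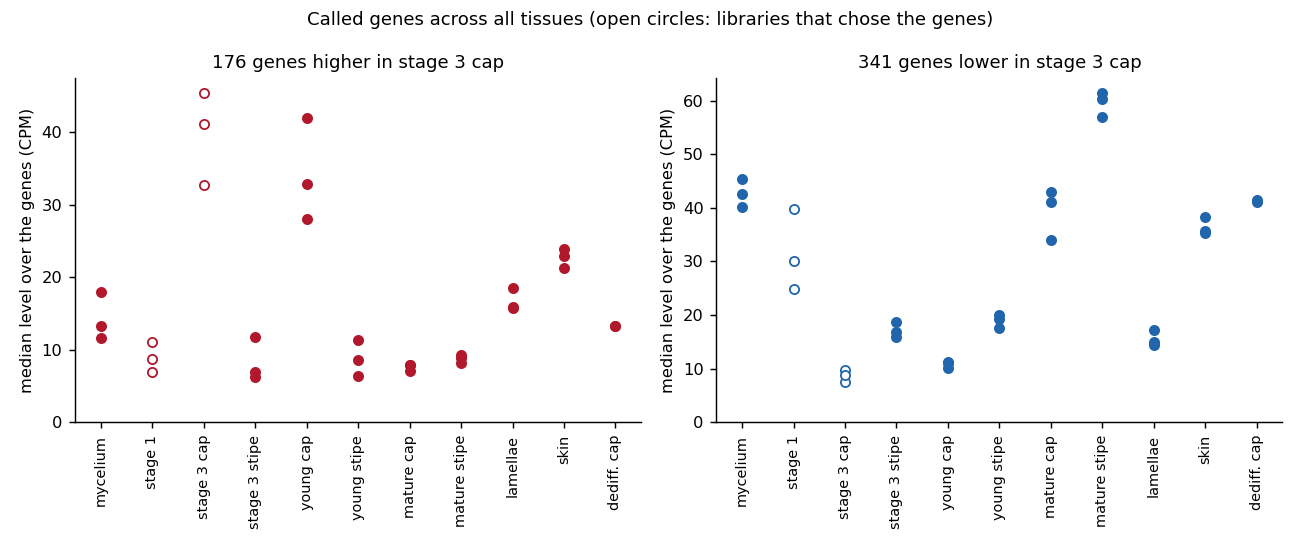
Each circle is the median level in CPM over the 176 raised genes (left, red) or the 341 lowered genes (right, blue) in a library, with tissues ordered by stage; open circles are the libraries that picked the genes. Stage 3 cap and young cap are highest on the left, at 28.1 to 45.5 CPM, and lowest on the right, at 7.42 to 11.2 CPM.

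The other mature tissues were compared with mature cap after the group levels had been seen. These comparisons use the mature cap libraries that also enter mature cap against young cap, so the levels in mature cap bear on all of them. They are therefore not separate lines of evidence. Skin and mature cap differed in 476 genes (4.4%), with skin higher in 360 (3.33%) and lower in 116 (1.07%). Of the raised genes 72 (40.9%) were higher in skin, with a median of 1.23 log2 units, beside -0.01 over all genes tested. Of the lowered genes 33 (9.68%) were lower in skin, with a median of -0.32. That last count rested on single libraries and on the scaling. It was 13 to 19 without mature cap replicate 2 or 3 or any skin replicate, and 16 under scaling by library size only, where skin was higher in 520 genes and lower in 52 and the median over all genes was 0.23 log2 units. The count of all genes that differed dropped to 300 when mature cap replicate 3 was left out and to 317 when skin replicate 3 was.

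Lamellae and mature cap differed in 2948 genes (27.3%), with lamellae higher in 1524 (14.1%) and lower in 1424 (13.2%). Scaling by library size only gave 2172 higher and 952 lower, at a median over all genes of 0.28 log2 units. Of the raised genes 68 (38.6%) were higher in lamellae and 18 (10.2%) were lower, with a median of 0.60 log2 units, beside 0.01 over all genes tested. Of the lowered genes 194 (56.9%) were lower in lamellae, with a median of -1.38. Summed over the raised genes, lamellae held 32372 CPM, but gene 6067 alone made up 56.9% of it, and without that gene the sum was 13949 CPM.

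**Figure D5:**
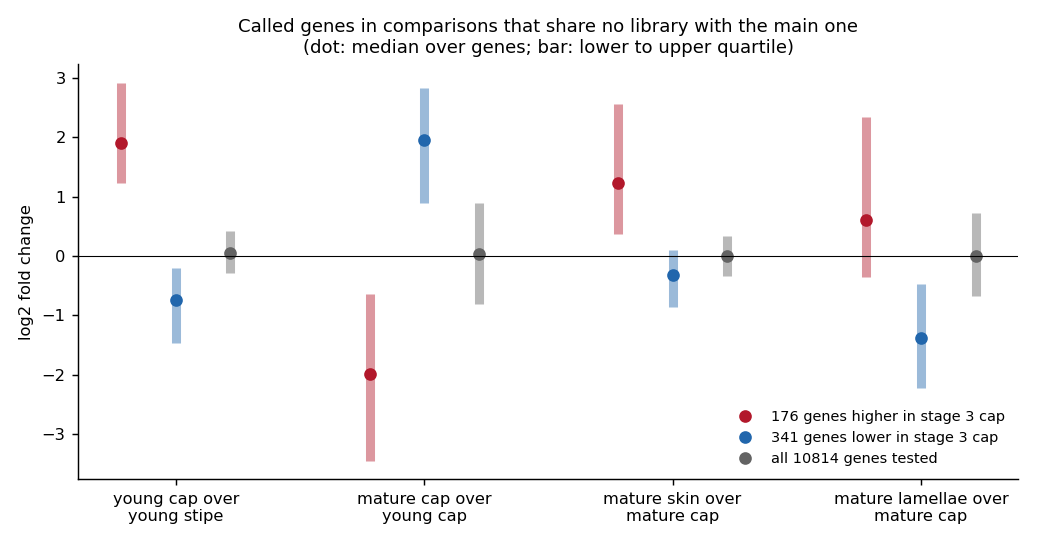
Dots give the median log2 fold change, and bars the range from the lower to the upper quartile, of the 176 raised genes (red), the 341 lowered genes (blue) and all genes tested (grey) in 4 comparisons that share no library with stage 3 cap against stage 1 primordia. The comparisons do share libraries with each other. Those with mature cap all use the same mature cap libraries, and those with young cap the same young cap libraries. Raised genes lie above 0 in young cap over young stipe (median 1.91) and below 0 in mature cap over young cap (median -1.98), and lowered genes lie on the other side in both.

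The tissue of the highest mean level was counted for each list. Among all 11 groups, stage 3 cap had the highest mean for 52 of the 176 raised genes (29.5%). Mycelium and skin had it for 31 each (17.6%), lamellae for 23 (13.1%) and young cap for 18 (10.2%). The libraries that picked the genes are part of these counts, so they are a description. The lowered genes were highest in the dedifferentiated cap for 89 of 341 (26.1%) and in mature stipe for 87 (25.5%). They were highest in mycelium for 75 (22%) and in stage 1 primordia for 38 (11.1%). Over all genes tested, stage 3 cap was highest in 9.51%, mycelium in 21.7%, skin in 2.75%, lamellae in 9.11% and young cap in 2.42%. The dedifferentiated cap was highest in 16.9% of all genes, mature stipe in 10.3% and stage 1 primordia in 2.91%. The share of mycelium was thus close to that over all genes for the lowered genes and below it for the raised genes. The median level of the lowered genes was 60.9 CPM in mature stipe and 45.4 CPM in mycelium, above the 35.2 CPM of stage 1 primordia. It was also above that level in the dedifferentiated cap (44.1 CPM), mature cap (41.4 CPM) and skin (36.5 CPM).

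Most called genes had no neighbour by number in their own list: 10.8% of raised and 19.6% of lowered genes had one. Of the genes numbered next to a raised gene, 5.71% were raised themselves, beside 1.63% of all genes tested, and of those next to a lowered gene 10.3% were lowered, beside 3.15%. In all, 19 raised genes lay in 8 runs of successive numbers and 67 lowered genes in 31 runs. The longest run held 4 raised genes, among them genes 3280 and 3282. Fractional counts, which may come from reads shared between similar genes, were present in 3 of these 19 raised genes and 14 of these 67 lowered genes. The sources used here do not say what the order of the numbers stands for.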

How the data were processed

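RNA was sequenced as strand-specific poly(A) libraries, per the labels' protocols. The submitters' processing notes name STAR, featureCounts, R 3.0.2, edgeR 3.4.2 and limma 3.18.13, with a genome build not given in the sources used here beyond the label PleosPC15 on the FPKM table. The authors deposited expected counts per gene (12329 genes, 95.2% of values above 0 whole within 1e-06), which were rounded, and a table of log2 FPKM values (10755 genes) that was turned back to FPKM. FPKM was used for levels between genes and in the alternatives. Counts were tested with edgeR 4.0.16 in R 4.3.3: filterByExpr, TMM scaling and a robust quasi-likelihood fit of group means over all 32 libraries (21 residual degrees of freedom). CPM uses TMM-scaled totals. Replicates are samples the labels number as separate biological replicates; no 2 of them agreed within counting noise (31 pairs; smallest ratio of chi-square to its degrees of freedom 19.1). The cap-skin and cap-lamellae comparisons were added after values were seen, and the gene lists and comparisons were chosen with earlier results of these data known. Genes named are, among called genes without overlap of libraries and with mean counts of 10 or more in each group compared, the 2 largest changes each way and the largest each way between cap and stipe of stage 3 and young bodies. Alternatives used DESeq2 1.42.0, limma 3.58.1, other scalings, thresholds and left-out libraries. None of the gene numbers matched the 11849 reference entries of strain PC9.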

Additional observations from a re-analysis of the deposited data

How the results depend on the processing

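The direction of every gene named by rule in stage 3 cap against stage 1 primordia held under every alternative run. A 4-fold threshold left 214 genes (95 higher, 119 lower) of 517; the DESeq2 test called 697, limma on log2(FPKM + 1) 459, and the other scalings 523 and 543. Leaving out a cap or stage 1 library gave 246 to 576 genes, and 665 without stage 3 stipe replicate 3. Leaving out a library gave 314 to 733 genes in stage 3 cap against stage 3 stipe, 212 to 474 in young cap against young stipe and 300 to 564 in skin against mature cap. Raised genes called higher in young cap than in young stipe then numbered 74 to 115. Lowered genes called lower in young cap than in young stipe then numbered 53 to 101, and in skin than in mature cap 13 to 40, or 16 with library size alone. The cause of these shifts was not tested. When the lists were called again without each cap or stage 1 library, an alternative added after values were seen, 54.1% to 70.8% of raised genes were higher in young cap than in young stipe and 59.4% to 67.2% were lower in mature cap than in young cap. Same-numbered cap and stage 1 libraries deviated with correlations of -0.416, 0.25 and -0.126. The values were 0.659, -0.122 and 0.573 for stage 3 cap and stipe, and 0.233, -0.632 and -0.363 for young cap and stipe. They were 0.16, -0.44 and 0.0065 for mature and young cap. Skin and mature cap gave -0.437, -0.64 and 0.0194, and lamellae and mature cap gave 0.654, 0.667 and -0.125. Each comparison held a negative value, and the numbers were not taken as pairs. So few correlations, some of them high, cannot settle whether same-numbered libraries were paired. Whether the libraries with high values came from the same bodies was not tested. With the replicate block 506 genes were called (170 higher, 336 lower), and gene 6067 was not (adjusted p by edgeR = 0.0584). A group mean under 10 counts lies behind 14 raised and 14 lowered genes, on whose fold changes counting error bears most.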
